A study of Arabidopsis thaliana with 36 samples.

Results

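The 5 genes described here encode enzymes that make or salvage the deoxynucleotides used as building blocks of DNA in Arabidopsis thaliana. They are TSO2 (AT3G27060) and RNR2A (AT3G23580), which encode small subunits of ribonucleotide reductase, RNR1 (AT2G21790), which encodes its large subunit, and the thymidine kinase genes TK1A (AT3G07800) and TK1B (AT5G23070). They were chosen by locus, 5 of 33977 genes in the deposited table, and all 5 passed the filter on low values. These genes and the gene lists below were chosen with earlier results of these data known. Their counts beside the shares of all genes are therefore descriptions only. The plants, of the Col-0 ecotype, were grown in soil in short days and exposed at 4 weeks of age to gamma rays from a caesium source. A mock group was not exposed. The exposed groups received 10 cGy or 100 cGy at the same dose rate, so that the larger dose took longer. Whole rosettes were taken at 1, 3, 24 and 72 h after exposure, which gives 12 groups of 3 libraries, 36 libraries in all. The labels do not say how mock plants were handled or whether the 3 libraries of a group came from separate plants or exposures, so every p below reflects the spread among the sequenced libraries, part of which may be technical.

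Ribonucleotide reductase converts ribonucleotides to deoxyribonucleotides. Its large subunit carries the catalytic site and the sites through which nucleotides regulate it, and its small subunit carries the iron centre and the tyrosyl radical that start the reaction. Thymidine kinase feeds a separate salvage route by adding a phosphate to thymidine. Demand for deoxynucleotides is highest in S phase, and DNA repair uses them too. TSO2 is known in Arabidopsis as a small-subunit gene whose transcript responds to DNA damage, and plants without it have low deoxynucleotide pools and irregular leaves. A further small-subunit gene, RNR2B, was absent from the deposited table, so it could not be analysed here.

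In the TAIR10.1 reference annotation TSO2 lies at chr3:9979841-9981620 on the minus strand with 2 exons, and RNR2A at chr3:8459838-8462815 on the plus strand with 9. RNR1 lies at chr2:9293261-9297861 on the plus strand with 17 exons. TK1A lies at chr3:2489387-2491180 on the minus strand with 4 exons, and TK1B at chr5:7741792-7742978 on the plus strand with 1. The coding sequences of TSO2 and RNR2A were identical at 67.6% of aligned bases, with a longest identical run of 13 bases, and those of TK1A and TK1B at 66.7%, with a longest run of 11. All 180 values of the 5 genes came out as whole reads within a tolerance of 0.02, between 349 and 3100 reads per library.

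The sequences before the start codons were searched on both strands for the SOG1 word, CTT and AAG separated by 7 bases of any kind, known as the binding word of SOG1, the plant transcription factor of the DNA damage response, and for the E2F words TTTCCCGC, TTTGGCGC, TTTGCCGC and TTTCGCGC, known from genes of the G1-to-S transition. In the 250 bases before and 50 bases after the annotated gene start, RNR1 held both kinds and the other 4 genes held neither. The SOG1 word was in 11.8% and an E2F word in 1.76% of 27438 such windows. A second window, the 500 bases before the start codon, was chosen after the first was seen, and there TSO2 and RNR1 each held 1 word of each kind. The 4 sites are shown because they lie in the subunit gene that rose most after 100 cGy and in its partner that did not pass the test after that dose. Capitals mark the matched word.
TSO2, SOG1 word, chr3:9981279-9981307, minus strand: cccttcatCTTCCTCAACAAGcttttttc
TSO2, E2F word, chr3:9981512-9981541, minus strand: ctaaaacacatTTTGGCGCgtgtaacatcg
RNR1, SOG1 word, chr2:9293247-9293275, plus strand: ataggctcCTTCTCCTAGAAGctggcggg
RNR1, E2F word on the opposite strand, chr2:9293260-9293289, plus strand: cctagaagctgGCGGGAAAatcccaaaact

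Both TSO2 words lie in the annotated leader, 242 to 230 bases and 473 to 466 bases before the start codon. In RNR1 the SOG1 word spans the annotated gene start and the E2F word follows it. No such word was found in the 500 bases before the start codons of RNR2A, TK1A and TK1B. Of 27438 windows of that length, 20.4% held the SOG1 word and 2.95% held an E2F word, so these matches are a description of the letters and not evidence of binding.

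The deposited values are in CPM, the reads of a gene per 1e6 reads of its library. Library depth was 22.1 to 36.7 in units of 1e6 reads, and replicate libraries correlated at 0.979 to 0.994 across genes. Leaf markers summed to between 31116 and 43450 CPM in every library and the 4 flower markers to at most 1.05 CPM. Of the root markers RHD6 was at 0 in every library, while PYK10 (44.5 to 149 CPM) and SCR (23.8 to 65.4 CPM) were detected. Replicate 1 of 10 cGy at 3 h stood apart in its share of chloroplast transcripts, 0.608% against a median of 0.213% over libraries, and without it the numbers of genes of the 5 called in the comparisons it enters did not change. Differences below are on the log2(CPM + 0.5) scale from a limma fit over all 36 libraries and 18875 tested genes, and "called" means a Benjamini-Hochberg adjusted p under 0.05 over those genes. Bulk RNA of a rosette cannot tell fewer cells of a type from less RNA per cell.

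Per kilobase of transcript, TSO2 had the highest median level over libraries, 36.5 CPM per kb, and TK1A the lowest, 9.35. Between them came RNR2A at 26.0, RNR1 at 20.4 and TK1B at 18.0 CPM per kb. Each gene moved over a narrow range, the highest group mean being between 1.80 and 2.04 times the lowest. For TSO2, RNR2A and RNR1 the lowest of the 12 groups was 10 cGy at 1 h. For TSO2 and TK1A the highest was 100 cGy at 1 h, whose libraries lay above all those of the next group in order, 100 cGy at 3 h. Most other neighbours in the order of group means overlapped in their libraries.

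**Figure D1:**
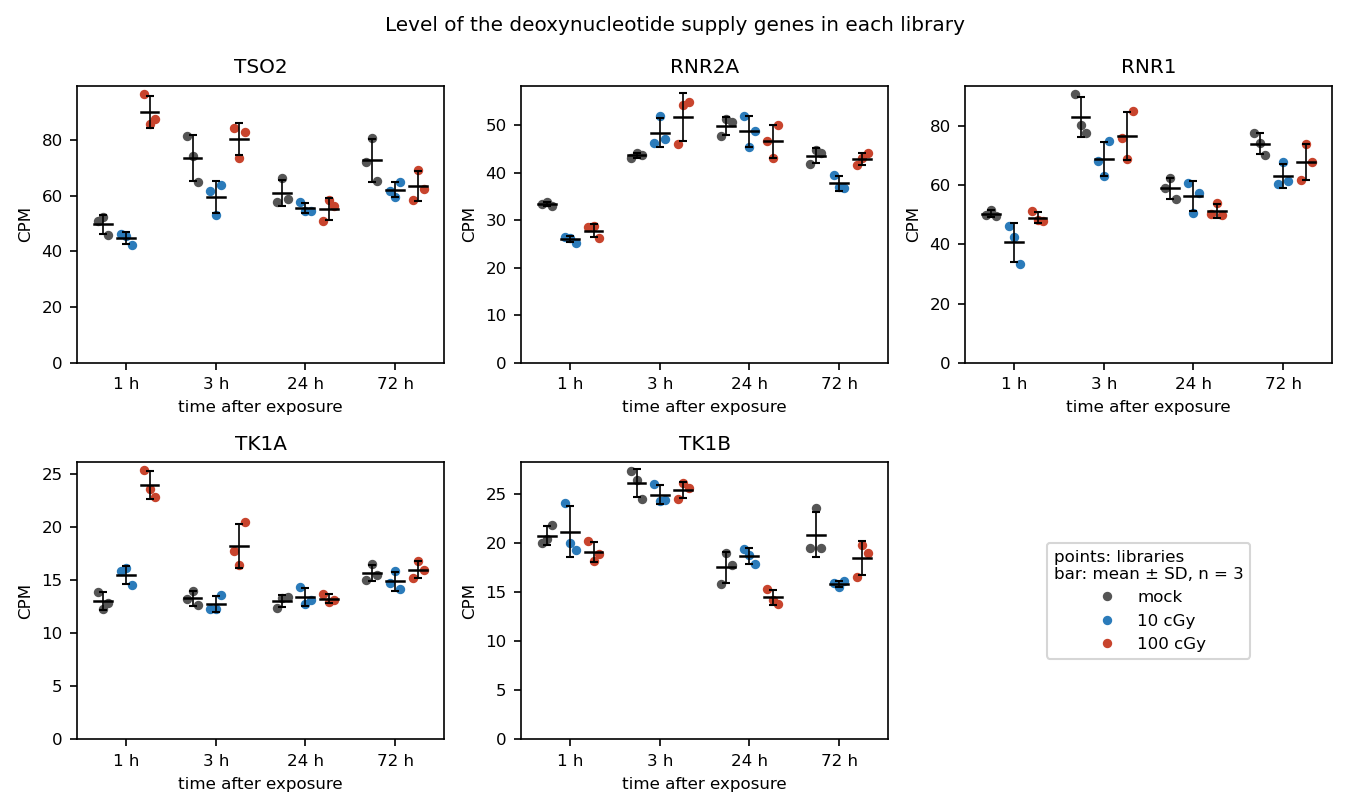
Level of each gene in CPM (vertical axis, from 0) in every library by time after exposure (horizontal axis) and dose (colour), with bars for the mean ± SD of 3 libraries. TSO2 and TK1A stand out at 100 cGy and 1 h, with means of 90.0 and 23.9 CPM, whereas RNR2A is lowest at both doses and 1 h.

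At 1 h the 5 genes split. After 100 cGy, TSO2 and TK1A rose 1.80-fold and 1.81-fold, RNR2A fell, and RNR1 and TK1B did not pass the test. After 10 cGy, RNR2A and RNR1 fell and TK1A rose slightly. At 100 cGy 3 of the 5 genes were called against mock, where 17.6% of all tested genes were called, and at 10 cGy 3 of the 5 were called, where 25.3% were. Both doses were compared with the same mock libraries. Against 10 cGy, 100 cGy called 2 of the 5 genes, both higher, where 0.726% of all tested genes were called in either direction and 0.318% were called higher.

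The small-subunit gene TSO2 had 51.0, 52.3 and 45.8 CPM in the mock libraries at 1 h. It had 46.3, 45.4 and 42.3 CPM after 10 cGy and 96.7, 85.9 and 87.4 CPM after 100 cGy. All 3 libraries of 100 cGy lay above all those of mock and of 10 cGy, while mock and 10 cGy overlapped. The rise at 100 cGy was 0.85 on the log2 scale (SE 0.09, 95% interval 0.67 to 1.03, limma adjusted p = 2.23e-08). Leaving out each library in turn gave 0.79 to 0.89. At 10 cGy the difference from mock was -0.15 with an adjusted p of 0.219, and its interval ran from -0.33 to 0.03.

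At 3 h the mock libraries themselves held more TSO2, 81.6, 74.2 and 65.0 CPM. The values after 100 cGy were 84.3, 73.7 and 82.9 CPM, and those after 10 cGy were 61.8, 53.1 and 64.0 CPM. The 100 cGy and mock libraries overlapped, whereas all 10 cGy libraries lay below mock. The difference from mock was 0.13 at 100 cGy (adjusted p = 0.341) and -0.30 at 10 cGy (adjusted p = 0.0787). Of the members, 0 passed in the comparison of 10 cGy with mock at 3 h, where 1.49% of tested genes were called by limma at the adjusted threshold, although 3 of the 5 had an unadjusted p under 0.05. The effect of 100 cGy on TSO2 was smaller at 3 h than at 1 h by a tested difference of -0.72 (SE 0.12, limma adjusted p = 0.000164). TSO2 stayed higher after 100 cGy than after 10 cGy at 3 h, by 0.43 (adjusted p = 0.00281). Rescaling the libraries by median ratios moved the median of all genes by -0.13 in that comparison, and TSO2 was then 0.29 higher with an adjusted p of 0.0565. A fit on the libraries of 3 h alone gave 0.0664.

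At 24 h TSO2 averaged 61.0 CPM in mock, 55.6 after 10 cGy and 55.2 after 100 cGy. At 72 h it averaged 72.8, 62.1 and 63.5 CPM. None of these 4 differences from mock passed the test; they lay between -0.22 and -0.13.

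RNR2A, the other small-subunit gene measured, moved the opposite way to TSO2 after 100 cGy at 1 h. Its mock libraries held 33.4, 33.8 and 32.9 CPM, those of 10 cGy held 26.5, 26.2 and 25.3 CPM, and those of 100 cGy held 28.5, 28.7 and 26.3 CPM. Every irradiated library lay below every mock library, and the libraries of the doses overlapped. The fall against mock was -0.26 at 100 cGy (SE 0.06, limma adjusted p = 0.00323) and -0.35 at 10 cGy (adjusted p = 8.09e-05). The doses differed by 0.09, with an interval from -0.03 to 0.22 and an adjusted p of 0.7.

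At 3 h the group means of RNR2A lay above mock after both doses. Over all tested genes the median difference from mock was then -0.03 after 10 cGy and 0.09 after 100 cGy. RNR2A had 43.2, 44.1 and 43.7 CPM in mock, 46.3, 51.9 and 47.1 CPM after 10 cGy, and 46.0, 54.2 and 55.0 CPM after 100 cGy. Every irradiated library now lay above every mock library. The effect of dose at 3 h exceeded that at 1 h by 0.50 for 10 cGy (SE 0.09, limma adjusted p = 0.000185) and by 0.50 for 100 cGy (adjusted p = 0.000239). In the first of these tests RNR2A was the only member called, where 14.6% of all genes were called. In the second 3 of the 5 members were called, RNR2A among them, where 11.4% of all genes were. The effects at 3 h on their own were less firm. The difference of 0.24 at 100 cGy had an adjusted p of 0.0141, which became 0.117 with 0.13 after rescaling by median ratios, 0.110 within the libraries of 3 h, and 0.0565, 0.0956 and 0.0776 without mock replicate 1, 100 cGy replicate 2 or 100 cGy replicate 3. The difference of 0.15 at 10 cGy had an adjusted p of 0.229.

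At 24 h RNR2A averaged 49.9, 48.7 and 46.7 CPM in mock, 10 cGy and 100 cGy, and neither dose passed the test. At 72 h it averaged 43.6, 37.8 and 43.0 CPM. All libraries of 10 cGy at 72 h lay below mock, by -0.20 (adjusted p = 0.0342), a call lost within the libraries of 72 h alone (adjusted p = 0.0614) and when any of 4 of the 6 libraries was left out (limma adjusted p of at least 0.0762).

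RNR1, the large subunit, was lower after 10 cGy at 1 h. The mock libraries held 49.9, 51.8 and 49.6 CPM, and those of 10 cGy held 46.1, 42.6 and 33.5 CPM. All 3 lay below mock, but the third stood well below the other two. The difference was -0.32 (SE 0.09, limma adjusted p = 0.0124) with that library and -0.18 (adjusted p = 0.157) without it. After 100 cGy RNR1 had 51.2, 48.3 and 47.8 CPM, overlapping mock, and the difference of -0.04 had an interval from -0.23 to 0.15. RNR1 averaged 83.1, 68.9 and 76.8 CPM in mock, 10 cGy and 100 cGy at 3 h, 59.0, 56.3 and 51.3 CPM at 24 h, and 74.1, 63.3 and 67.9 CPM at 72 h. Its mean lay below mock in all 8 comparisons of a dose with mock, and it passed the test in 1 of them. The 8 are not independent, because both doses share the mock libraries of each time.

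**Figure D2:**
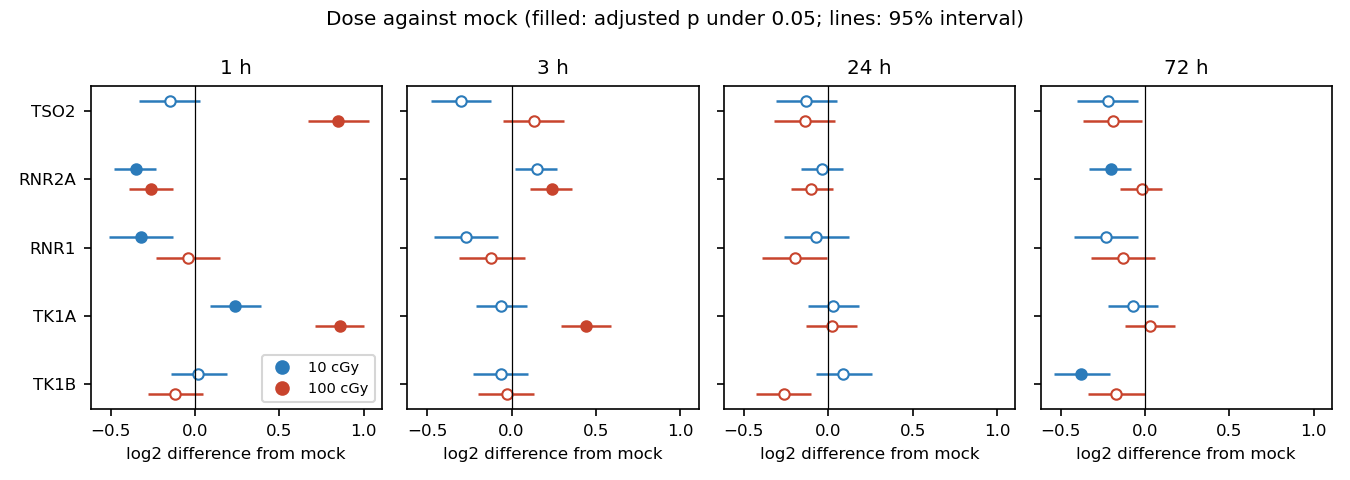
Log2 difference from mock (horizontal axis) of each gene (rows) at each time (panels) for 10 cGy and 100 cGy, with lines for 95% intervals and filled points for an adjusted p under 0.05. At 1 h TSO2 and TK1A lie at 0.85 and 0.86 after 100 cGy, while RNR2A lies at -0.35 and -0.26 after the lower and the higher dose.

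The thymidine kinase gene TK1A rose after both doses at 1 h. Its mock libraries held 13.9, 12.3 and 12.8 CPM, those of 10 cGy held 15.8, 16.1 and 14.5 CPM, and those of 100 cGy held 25.4, 23.6 and 22.8 CPM. The 3 groups did not overlap, in the order of dose. The rise was 0.86 at 100 cGy (SE 0.07, 95% interval 0.71 to 1.00, limma adjusted p = 7.55e-10) and 0.24 at 10 cGy (adjusted p = 0.0148). The larger dose exceeded the smaller by 0.62 (adjusted p = 5.35e-06). The rise at 10 cGy was not called without mock replicate 2 (adjusted p = 0.0831) or without 10 cGy replicate 2 (adjusted p = 0.0681).

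TK1A was still higher at 3 h after 100 cGy, with 17.7, 16.4 and 20.5 CPM against 13.2, 14.0 and 12.6 CPM in mock. The groups did not overlap. The difference was 0.44 (SE 0.07, limma adjusted p = 0.000548), and 0.34 (adjusted p = 0.00489) after rescaling by median ratios. Within the libraries of 3 h alone its limma adjusted p was 0.0472, just under the threshold. The effect was smaller than at 1 h by a tested -0.41 (SE 0.10, adjusted p = 0.00766). After 10 cGy at 3 h TK1A had 12.3, 12.3 and 13.6 CPM, which overlapped mock. At 100 cGy against mock at 3 h 2 of the 5 genes were called, TK1A and RNR2A, where 12.4% of tested genes were called, and at 100 cGy against 10 cGy 2 were called, TSO2 and TK1A, where 12.6% were. The latter difference of TK1A, 0.50 (adjusted p = 0.000199), had an adjusted p of 0.0586 within the libraries of 3 h alone. At 24 h the group means of TK1A lay between 13.0 and 13.4 CPM and at 72 h between 14.9 and 16.0 CPM, and no comparison of doses or mock passed the test.

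TK1B, the second thymidine kinase gene, did not pass the test at 1 h or 3 h. At 1 h it averaged 20.7 CPM in mock, 21.1 after 10 cGy and 19.1 after 100 cGy, and at 3 h 26.1, 24.9 and 25.4 CPM. The difference at 100 cGy and 1 h was -0.12 with an interval from -0.28 to 0.05. At 24 h its libraries held 15.8, 19.0 and 17.7 CPM in mock, 19.4, 18.8 and 17.8 CPM after 10 cGy, and 15.3, 14.2 and 13.8 CPM after 100 cGy. The 100 cGy libraries lay below all others, and TK1B was the 1 member called between the doses at 24 h, where 1.13% of tested genes were called. That difference of -0.36 (limma adjusted p = 0.0294) was not called after rescaling (-0.27, adjusted p = 0.0753), within the libraries of 24 h alone (adjusted p = 0.212), or when any of 5 of the 6 libraries was left out.

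At 72 h TK1B had 19.5, 23.5 and 19.5 CPM in mock and 15.9, 15.5 and 16.1 CPM after 10 cGy. The groups did not overlap, and the difference of -0.38 (SE 0.08) had an adjusted p of 0.0042, or 0.0567 without mock replicate 2 and 0.0511 within the libraries of 72 h. TK1B and RNR2A were the 2 members called at 10 cGy against mock at 72 h, both lower, where 9.38% of tested genes were called in either direction and 4.66% were called lower. Beside 10 cGy against mock at 3 h, limma called 0 of the 5 genes in 4 further comparisons, namely 10 cGy against mock at 24 h (3.29% of tested genes called), 100 cGy against mock at 24 h (0.599%) and at 72 h (1.58%), and the doses against each other at 72 h (0%). In those 4 comparisons 0, 2, 2 and 2 of the 5 had an unadjusted p under 0.05, in that order.

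The levels also moved with time in mock plants. From 1 h to 3 h TSO2, RNR2A, RNR1 and TK1B rose by 0.56, 0.38, 0.71 and 0.32, so that 4 of the 5 genes were called, where 44.1% of tested genes were called and 24.0% were called higher. TK1A differed by 0.02. In the same comparison 13 of 15 S-phase genes were called higher (median 0.53), 5 of 6 markers of dividing cells higher (median 0.48) and 3 of 5 leaf markers lower (median -0.33), and their part in the members' change was not tested. From 1 h to 24 h TSO2 and RNR2A were higher by 0.29 and 0.57 and TK1B lower (-0.24), 3 of 5 called against 38.4% of tested genes. Without mock 1 h replicate 3 only 1 of the 5, RNR2A, was called there. From 1 h to 72 h 4 of 5 were called, all higher, against 33.4% of tested genes in either direction and 18.4% called higher. Time since exposure and the hour of collection cannot be told apart here.

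Because the ratio of both genes in a library needs no scaling between libraries, the small subunits were also compared as the log2 ratio of TSO2 to RNR2A. At 1 h the ratio was 0.60, 0.62 and 0.47 in mock, 0.79, 0.78 and 0.73 after 10 cGy, and 1.75, 1.56 and 1.71 after 100 cGy. The 3 groups did not overlap. The mean rose from 0.57 to 1.68 at 100 cGy, a difference of 1.11 (SE 0.07). At 3 h the means were 0.74, 0.29 and 0.63 in mock, 10 cGy and 100 cGy, so the ratio after 10 cGy lay above mock at 1 h and below it at 3 h. With 3 libraries against 3 the two-sided exact permutation test cannot go below p = 0.1, the value reached in both of these comparisons at 1 h, and 0.24 after adjustment over 12 comparisons.

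The log2 ratio of TK1A to TK1B, a comparison added after the values of both genes had been seen, moved from -0.51, -0.70 and -0.74 in mock at 1 h to 0.32, 0.36 and 0.27 after 100 cGy. These groups did not overlap, and the difference of the means was 0.97 (SE 0.08, exact permutation p = 0.1, the smallest possible, and 0.15 after adjustment over 12 comparisons). After 100 cGy the ratio also lay above mock in every library at 3 h, 24 h and 72 h, by 0.48, 0.29 and 0.20. After 10 cGy at 72 h it lay above mock in every library too, by 0.31. Each of these differences had an exact permutation p of 0.1, and 0.15 after adjustment. At 24 h after 100 cGy TK1A differed from mock by 0.02 and TK1B by -0.26, so the difference in the ratio was mostly that of TK1B. The same held at 72 h, where TK1A differed by 0.03 after 100 cGy and -0.07 after 10 cGy, and TK1B by -0.17 and -0.38.

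**Figure D3:**
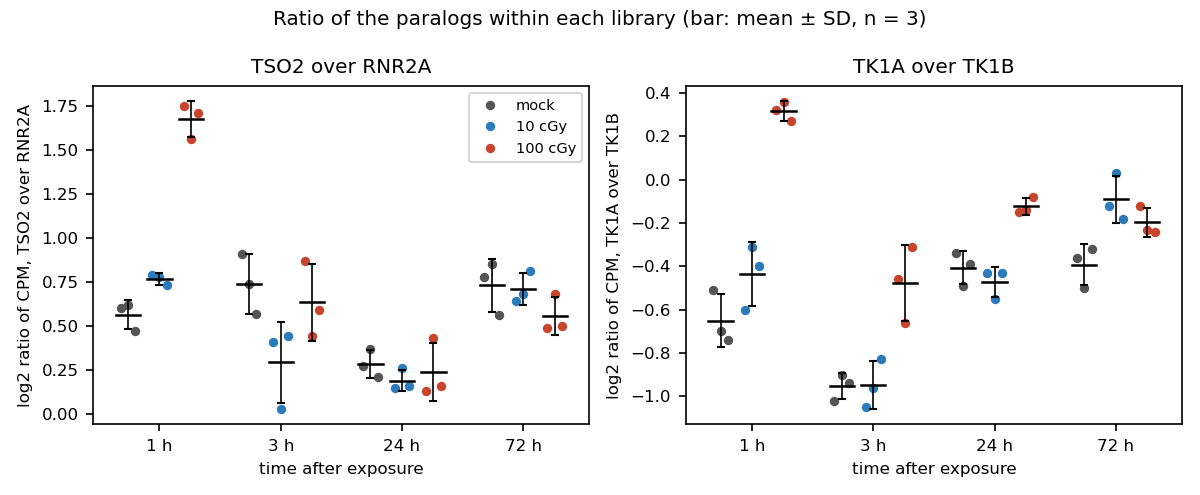
Log2 ratio of CPM within each library, TSO2 over RNR2A (left) and TK1A over TK1B (right), by time after exposure and dose, with bars for the mean ± SD of 3 libraries; the ratios are not divided by gene length. At 1 h the 100 cGy libraries lie above all others in both panels, between 1.56 and 1.75 on the left and between 0.27 and 0.36 on the right.

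Among 16 other measured genes of deoxynucleotide metabolism, of a list of 17, 3 were higher and 3 lower after 10 cGy at 1 h, with a median difference of -0.10 against -0.01 over all tested genes. After 100 cGy at 1 h 3 were higher and 1 lower, with a median of -0.07 against 0.02. Of all tested genes 25.3% were called in either direction after 10 cGy at 1 h and 17.6% after 100 cGy. The guanylate kinase gene AGK2 rose from 27.8 ± 1.27 CPM in mock to 47.0 ± 1.28 after 10 cGy and 47.0 ± 2.53 after 100 cGy (SD, n = 3), by 0.75 and 0.74 on the log2 scale. The second guanylate kinase gene, AGK1, rose by 0.64 and 0.36, and the nudix hydrolase gene NUDX1 by 0.41 and 0.46. Guanylate kinases phosphorylate GMP and dGMP, so they serve RNA and DNA precursors alike. Unlike TSO2, AGK1, AGK2 and NUDX1 did not pass the test between the doses at 1 h. In that comparison 0 of the 16 were called, and only 0.726% of all tested genes were.

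DUT1, the dUTPase that keeps uracil out of DNA, fell at 1 h from 10.4 ± 0.607 CPM to 6.84 ± 0.504 after 10 cGy and 7.90 ± 0.153 after 100 cGy (SD, n = 3). The differences were -0.57 (limma adjusted p = 0.000412) and -0.38 (adjusted p = 0.0211), the second of which was not called when any of 4 of the 6 libraries was left out. THY-1, a dihydrofolate reductase-thymidylate synthase gene, fell by 0.23 after 10 cGy, a call lost when 1 library was left out. AT2G21550 of the same family, at 1.06 CPM after that dose, fell by 0.52, a call lost with no filter on low values and when any of 4 of the 6 libraries was left out. At 3 h DUT1 fell by 0.56 after 10 cGy, not called within the libraries of 3 h alone. It was the only gene of the 16 called in that comparison, where 1.49% of all tested genes were called. At 3 h after 100 cGy AT5G40270, of an HD-domain phosphohydrolase family, was higher by 0.32 and NDPK2, a nucleoside diphosphate kinase gene, lower (-0.37). Neither was called within the libraries of 3 h alone. Of all tested genes 12.4% were called at 100 cGy against mock at 3 h. The deoxynucleoside kinase gene dNK was lower after 100 cGy at 24 h (-0.35), where 0.599% of all tested genes were called. That call was lost within the libraries of 24 h and when any of 4 of the 6 libraries was left out. After 10 cGy at 72 h dNK (-0.35), NDPK1 (-0.32) and NDPK2 (-0.39) were lower, where 4.66% of all tested genes were called lower. NDPK1 was not called there within the libraries of 72 h or without either of 2 libraries, and NDPK2 was not called without mock replicate 2.

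Genes of the replication machinery were set beside the members. Of 15 S-phase genes, 7 were lower and 0 higher after 10 cGy at 1 h, with a median of -0.28, and 2 were lower and 0 higher after 100 cGy, with a median of -0.18. Over all tested genes 25.3% and 17.6% were called in either direction at these doses, with medians of -0.01 and 0.02. Leaving out 1 library gave counts of 3 to 9 at 10 cGy and 0 to 3 at 100 cGy. RNR2A and RNR1, at -0.35 and -0.32 after 10 cGy at 1 h, lay within the range of this list, -0.42 to 0.00. So did TSO2 (-0.15), while TK1A (0.24) and TK1B (0.02) lay above it. After 100 cGy at 1 h the range of the list was -0.30 to 0.08. RNR2A (-0.26), RNR1 (-0.04) and TK1B (-0.12) lay within it, and TSO2 and TK1A lay above it. At 3 h after 10 cGy 7 of the 15 S-phase genes were lower, where 1.49% of tested genes were called. That count was 0 to 8 with a library left out. Their median was -0.40 and their range -0.46 to -0.10. TSO2 and RNR1, at -0.30 and -0.27, lay within that range. RNR2A, at 0.15, and TK1A and TK1B, both at -0.06, lay above it. Markers of dividing cells, which share MCM2 and PCNA1 with the S-phase list, summed at 1 h to 62.1, 67.3 and 62.5 CPM in mock, 53.1, 54.5 and 44.1 CPM after 10 cGy and 56.2, 55.2 and 57.9 CPM after 100 cGy. Every irradiated library lay below mock, and in RNR1 as in this sum replicate 3 of 10 cGy was the lowest. Of the 6 markers 3 were lower after 10 cGy, among them the shared MCM2 and PCNA1, and 1, the shared MCM2, after 100 cGy. Of 3 tested root markers 2, PYK10 and SCR, were lower after 10 cGy at 1 h, and SCR was lower after 100 cGy. The part of dividing cells, or of cells that hold PYK10 and SCR, in the lower RNR2A and RNR1 was not tested.

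Of 13 tested damage-response genes, 7 were higher and 1 lower after 100 cGy at 1 h, with a median of 0.56. After 10 cGy 1 was higher and 5 were lower, with a median of -0.20, and 2 to 4 were lower with a library left out. These counts stand beside the 17.6% and 25.3% of all tested genes called in either direction. XRI1 and PARP2, both known to be induced by ionizing radiation in Arabidopsis, rose by 1.76 and 1.75 after 100 cGy, and SMR7, a cyclin-dependent kinase inhibitor gene, by 1.37. TSO2 and TK1A, at 0.85 and 0.86, lay inside the range of this list, -0.25 to 1.76. So did RNR1 (-0.04) and TK1B (-0.12), while RNR2A (-0.26) lay just below it. After 10 cGy RNR2A and RNR1, at -0.35 and -0.32, also lay inside the range of this list, -0.58 to 0.35. Between the doses at 1 h 8 of the 13 were higher, with a median of 0.79, where 0.318% of all tested genes were called higher and their median was 0.01.

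**Figure D4:**
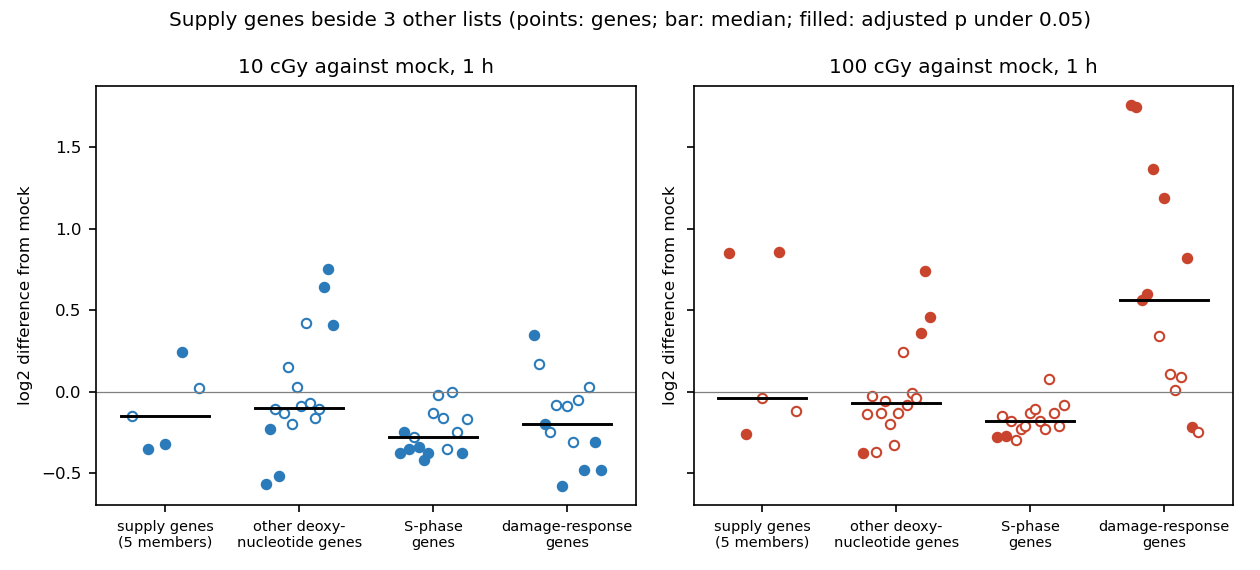
Log2 difference from mock at 1 h (vertical axis) after 10 cGy (left) and 100 cGy (right) for the 5 genes and 3 other lists (horizontal axis), with bars for list medians and filled points for an adjusted p under 0.05. After 100 cGy TSO2 and TK1A lie near 0.85, among the damage-response genes (median 0.56) and above the S-phase genes (median -0.18).

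The genes most like each member across the 12 group means, by Pearson's r of log2(CPM + 0.5), differed between members. For TSO2 they were GR1 (0.943), BRCA1 (0.924) and AT4G19130, annotated as Replication Protein A 1E (0.898). For TK1A they were RecQl3 (0.916), AT3G58270 (0.909) and AT3G27630, SMR7 (0.897). For RNR1 they were AT4G16450 (0.979), CHR1, also named DDM1 (0.976), and AT3G19810 (0.976). For RNR2A they included AT5G58370 (0.977) and TMT2 (0.971), and for TK1B they were emb1027 (0.970), RPL27AB (0.957) and AT5G45775 (0.956). Over the 36 libraries these r values lay between 0.725 and 0.940. Among the members themselves r was 0.66 for TSO2 with TK1A, 0.69 for RNR2A with RNR1, 0.17 for TSO2 with RNR2A and 0.04 for TK1A with TK1B. These are descriptions over 12 groups that share time of collection and processing.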

How the data were processed

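Poly(A) RNA of whole rosettes was sequenced from directional libraries, per the labels. Trimmomatic 0.32, STAR 2.5.2b, RSEM 1.2.28 and the build TAIR10 were used upstream, per the submitters' processing notes, which give no role or order. The values used are the authors' deposited CPM of 33977 genes, with columns that add up to 1e6. They also deposited the natural log of CPM + 1, which was not used beyond checking that it matched the first table to 4.1e-09. Between 88.8% and 90.6% of values above 0 were whole reads within 0.02, so count tests were not used. Genes with at least 1 CPM in at least 3 libraries (18875) were fitted as log2(CPM + 0.5) with limma 3.58.1 in R 4.3.3, 1 mean per group over 12 groups, with an intensity trend and Benjamini-Hochberg adjustment, and the fit was tested on simulated data. Paralog ratios had two-sided exact permutation tests (scipy 1.17.1). Gene models and sequences came from the RefSeq TAIR10.1 genome and annotation, whose build name differs from that in the notes. Lengths are those of the longest transcript. The 5 members are always named, every measured gene of the deoxynucleotide list may be named, up to 4 called genes of the S-phase and damage lists, and the 3 most similar genes per member, 1 of which is not reported here. Members and lists were chosen with earlier results of these data known. Alternatives were 2 pseudocounts, 2 filters, rescaling by median ratios, a replicate block, no trend, a fit within the times compared and leaving out each library. An interval or read number covers counting and library spread only.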

Additional observations from a re-analysis of the deposited data

Results flagged for a closer look

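For 3 of the 5 genes the effect of a dose differed between 3 h and 1 h by the test of that difference in limma. TSO2 was 0.72 lower in its response to 100 cGy at 3 h than at 1 h (-0.72, adjusted p = 0.000164), and TK1A 0.41 lower (-0.41, adjusted p = 0.00766). RNR2A was 0.50 higher in its response to 10 cGy (adjusted p = 0.000185) and 0.50 higher in its response to 100 cGy (adjusted p = 0.000239). These 4 differences were called under every alternative and with each library left out. The mock libraries of 1 h and 3 h enter both doses, and mock TSO2 and RNR2A were themselves higher at 3 h, by 0.56 and 0.38, whereas mock TK1A differed by 0.02.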

How the results depend on the processing

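Of 85 results of a gene in a comparison, 30 were called, 24 of them under every alternative that kept all libraries and 20 also with each library left out. None of the 30 changed sign under these alternatives. For the numbers of members called, the fit within the times compared gave 1 rather than 2 for 100 cGy against mock at 3 h, 0 rather than 2 for 100 cGy against 10 cGy at 3 h, 0 rather than 1 for the same doses at 24 h, and 0 rather than 2 for 10 cGy against mock at 72 h. Rescaling by median ratios gave 1, 1 and 0 in the first 3 of these, and moved the median of all genes by -0.11 and -0.13 in the 2 comparisons at 3 h. For the effect of 10 cGy at 3 h minus 1 h, pseudocount 0.1, the filter of 12 libraries and the fit without a trend gave 2 rather than 1, adding TK1A (adjusted p 0.0473 to 0.0493 against 0.0501). Leaving out 1 library gave 0 to 1 members for 10 cGy against mock at 3 h, 1 to 2 for 100 cGy against mock at 3 h, 0 to 1 for the doses at 24 h, 0 to 2 for 10 cGy against mock at 72 h, 1 to 2 for the effect of 10 cGy, and 1 to 4 for mock at 24 h against 1 h. The cause was not tested. Same-numbered libraries had correlations of deviations of -0.43 to 0.41 (median -0.03 over 36 pairs). At 24 h 7 of 9 pairs were over 0.1, including all 3 of mock with 100 cGy (0.25 to 0.34), where the block called 0 members as before. The replicate block changed none of the 17 counts, with 3 members called for each dose against mock at 1 h. The 7 S-phase genes lower after 10 cGy at 1 h were 7 to 8 under alternatives that kept all libraries. Depth was 22.1 to 36.7 in units of 1e6 reads, and each member had at least 349 reads in each library.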
